A study of Mus musculus with 1111 samples.

Results

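The small ribosomal subunit proteins are the Rps proteins that join 18S ribosomal RNA to form the 40S subunit, the part of the ribosome that binds the messenger RNA and reads its codons. Members were all genes in the count tables named Rps plus a number, with or without trailing letters, and Rpsa; pseudogenes (-ps), the S6 kinases (Rps6k) and Rps19bp1 were left out. This gave 33 genes of 35583, the same 33 in each of the 3 tables.

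The cells were microglia, the resident macrophages of the brain, taken from mice aged 3 months. Plasma proteins carrying the fluorescent dye NHS-Atto647N had been injected 20 hours before isolation. Cells were sorted by the intensity of the dye they carried into plasma none, plasma low and plasma high, and each was sequenced by Smart-seq2, which makes 1 full-length library per cell in a plate well. All 3 groups came from injected mice of this age, and strain, sex and treatment before injection were not given in the sources used here. The labels do not tie cells to animals; a group is therefore 1 sample, and the groups could not be tested against each other. Every cell also had a number from 1 to 3 after the letters TH, whose meaning is not stated and which had its own count table. Values were therefore taken within each TH number, and errors are the SD over the 3 TH numbers (n = 3), not over animals. Plasma none filled plate columns 1 to 8, plasma low columns 9 to 16 and plasma high columns 17 to 23, so group and plate position cannot be told apart.

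After a filter on depth 987 cells remained (35.1% plasma none, 35.6% plasma low, 29.4% plasma high), with a median of 175699 to 404743 reads in genes per cell in the 9 combinations of group and TH number. Microglial markers summed to between 45387 and 54371 counts per 1000000 reads (CPM) in all 9 sums, with similar means in the 3 groups. Several markers of border-associated macrophages (Cd163, Lyve1, Pf4), monocytes (Ly6c2, Plac8), neutrophils (S100a8, S100a9) and T cells (Cd3e, Cd3d) had no read in any sum. Ccr2 led the monocyte list with a mean of 2.70 CPM. That list reached at most 7.25 CPM in plasma none, 8.42 CPM in plasma low and 7.57 CPM in plasma high. Csf3r held nearly all of the neutrophil list (376.2 CPM of a summed 316.6 to 437 CPM), and Slc1a3 held most of the astrocyte list (271.3 CPM). The astrocyte list had a lower mean in plasma high (225.03 CPM, range 214.2 to 244.03) than in plasma none (324.01 CPM, range 224.2 to 373.96), and the oligodendrocyte list a higher one (190.4 CPM, range 161.6 to 246.03, against 132.5 CPM, range 92.3 to 153.3). Cd79b was the one lymphocyte marker with reads (the list summed to 35.2 to 35.9 CPM in plasma none, 25.2 to 41.01 CPM in plasma low and 22.6 to 82.9 CPM in plasma high). The neuron list reached 57.98 CPM in 1 plasma high sum and at most 2.32 CPM in plasma none and plasma low, and the border-associated macrophage list, led by Mrc1, at most 22.2 CPM. The part of these markers in the results was not tested.

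The 40S subunit is built from a head, a body and a platform. The head and body together form the entry of the mRNA channel, and the platform lies at its exit. The proteins are assembled on the pre-ribosomal RNA in the nucleolus before the particle matures in the cytoplasm. Many vertebrate ribosomal protein mRNAs begin with a run of pyrimidines directly after the cap, the 5′ terminal oligopyrimidine (TOP) motif, through which mTORC1 and the RNA-binding protein Larp1 control their translation. Ribosomal protein genes also have many processed pseudogenes in the mouse genome, so short reads can match several places.

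Start-site sequences are shown because the tract of C and T at the start is the feature the family is best known for. Windows from RefSeq (GRCm38.p6) matched 25 of the 33 members, in 30 windows of 300 bases. Each line gives 60 bases before the annotated start and 20 bases from it, 5′ to 3′ on the strand of the gene, with the longest C or T run that reaches within 5 bases of the start in capitals. Rps6 and Rps27 are shown for their long runs (the median over member windows was 4 bases), Rps15a and Rps4x had high ratios between plasma high and plasma none, and Rps24 and Rps13 had the lowest.
Rps6 (chr4:86857348-86857427, - strand): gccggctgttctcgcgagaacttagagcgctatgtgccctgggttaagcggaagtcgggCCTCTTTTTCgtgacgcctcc
Rps27 (chr3:90213629-90213708, - strand): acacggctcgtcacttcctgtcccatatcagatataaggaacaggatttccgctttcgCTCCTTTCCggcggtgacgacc
Rps15a (chr7:118116128-118116207, - strand): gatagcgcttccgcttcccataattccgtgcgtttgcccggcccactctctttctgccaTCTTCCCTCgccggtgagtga
Rps4x (chrX:102189372-102189451, - strand): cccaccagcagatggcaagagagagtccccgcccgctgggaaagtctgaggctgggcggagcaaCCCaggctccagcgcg
Rps24 (chr14:24490618-24490697, + strand): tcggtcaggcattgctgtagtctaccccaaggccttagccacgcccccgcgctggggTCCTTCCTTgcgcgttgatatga
Rps13 (chr7:116334171-116334250, - strand): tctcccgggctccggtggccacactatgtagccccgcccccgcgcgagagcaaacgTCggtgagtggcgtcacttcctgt
A run of at least 6 such bases was present in 43.3% of member windows and in 21.02% of all 32851 windows. Of the lines shown, Rps15a and Rps24 have runs of 9 bases, and Rps4x and Rps13 have 3 and 2. Rps24 has another annotated start in the table, not shown, with a run of 2 bases. The letters CCGGAAG, a match to the ETS core, were found on either strand in 12 of 30 member windows against 8.86% of all, and AAGATGG, a match to YY1, in 16.7% against 6.34%. These motifs can overlap by their shared AAG. TATAAA was found in 6.67% against 13.6%, and CACGTG in 3.33% against 7.15%. A match describes the letters in the window and is not a measured binding site.

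The Rps27 family is the one place where 2 members share a whole coding sequence, and it is shown because it limits what a count for these genes means. Rps27 (chr3:90212522-90213651, - strand, mm10) and the single-exon copy Rps27rt (chr9:114982366-114982739, - strand) have coding sequences of the same length with 0 differences. Rps27l (chr9:66946086-66949516, + strand), a paralog known as a p53 target, has that length too and differs at 61 positions (76.1% identical), shown in capitals.
Rps27: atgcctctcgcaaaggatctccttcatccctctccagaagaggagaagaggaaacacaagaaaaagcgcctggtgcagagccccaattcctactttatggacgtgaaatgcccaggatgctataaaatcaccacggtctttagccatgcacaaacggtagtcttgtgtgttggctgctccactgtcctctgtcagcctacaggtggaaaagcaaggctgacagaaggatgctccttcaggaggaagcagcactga
Rps27l: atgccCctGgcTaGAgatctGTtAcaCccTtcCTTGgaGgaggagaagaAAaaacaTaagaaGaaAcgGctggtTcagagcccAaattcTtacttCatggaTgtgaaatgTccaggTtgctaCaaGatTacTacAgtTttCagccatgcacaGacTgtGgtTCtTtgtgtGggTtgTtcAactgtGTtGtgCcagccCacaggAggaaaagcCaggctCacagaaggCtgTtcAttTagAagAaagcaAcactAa
A read within the coding sequence cannot tell Rps27 from Rps27rt, so the counts of this pair are uncertain, while reads from Rps27l can be told apart.

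Copies elsewhere in the genome bear on the other members too. In 23 of 33 members more than 80% of the 50-base words of the coding sequence also occurred in transcripts of genes elsewhere, and in 10 of them every word did (among them Rps27a, Rps28 and Rps29). Rps3 shared 8.05%. In GENCODE M21 95.2% of the genes that hold such copies are pseudogenes. Of the genes with copies, 17 had a row that was analysed here, and these are annotated as other types than pseudogene. The copies annotated as pseudogenes therefore have no value here. Among those 17, Med21 (69.8 CPM, protein-coding) and Gm26510 (36.4 CPM, a lincRNA) held nearly all reads, and the other 15 summed to 5.61 CPM, against 3720 to 5830 CPM for the members. Such sums do not measure how many member reads went to copies. Across the 32 members above 20 CPM, the share of copied words and the log2 ratio between plasma high and plasma none had a rank correlation of -0.02, given as a description only. How reads with several matches were counted is not stated. A total of 9 members overlap a gene on the opposite strand (such as Rps25 with Trappc4 and Ccdc84, and Rps14 with Ndst1), and without a stated strand setting their reads cannot be told apart.

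Expression level was the first measure. The 32 members with a mean of at least 20 CPM ran from 36.2 CPM (Rps27l) to 412 CPM (Rps3), with a median of 122.7 CPM. Rps27rt, at 2.23 CPM, was the single member below that filter. To compare genes, CPM was divided by the coding length in kilobases, since full-length libraries give longer transcripts more reads; untranslated parts are not corrected for by this. On this scale (CPM per kilobase of coding sequence) Rps25 was highest at 851, Rps29 was among the highest at 663, and Rps6 was among the lowest at 104.1.

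**Figure D1:**
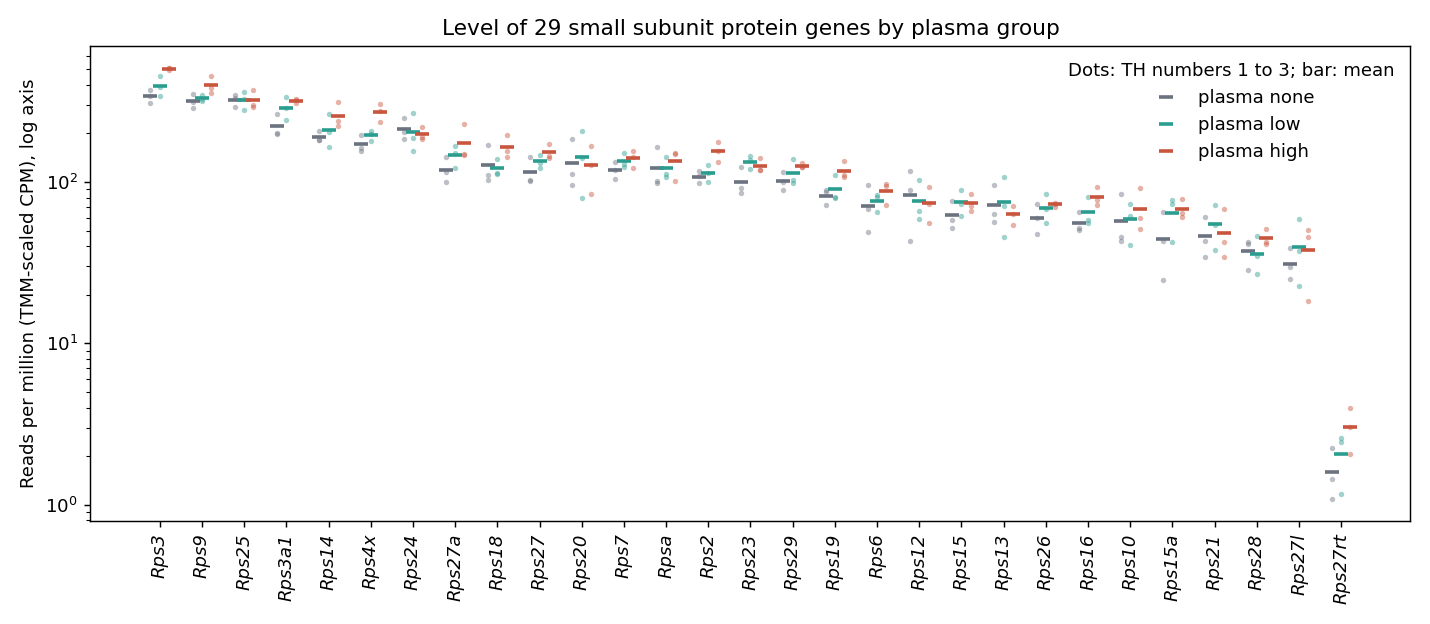
Level of 29 members on a log axis of TMM-scaled CPM, with a dot for each TH number and a bar for the mean of each plasma group, ordered by mean level. Rps3 has the highest mean, and Rps27rt lies far below the others.

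Plasma high against plasma none asked how the family's mRNA differed between cells with the most and with no measured plasma signal. Small subunit mRNA made up more of the reads in plasma high: 23 of 32 members were higher in all 3 TH numbers and 1 (Rps24) was lower in all 3. Among all 6940 genes with at least 20 CPM, 17.2% were higher in all 3 TH numbers and 14.2% lower, and among the 806 genes with at least 200 CPM 25.4% were higher, against 7 of 9 members. The median log2 ratio of the members was 0.34 (0.20, 0.37 and 0.50 in TH 1, 2 and 3), beside 0.03 over all genes tested. The differences were small: 3 members, Rps15a and Rps4x among them, were also at least 1.5-fold higher, which is close to the background share of 9.25%. In 11 of 32 members all 3 plasma high values lay above all 3 plasma none values, against 7.45% of all genes, and in 9 members the mean log2 ratio was smaller than its own SD. In bulk sums such as these, fewer transcripts per cell and fewer cells with the transcript cannot be told apart; the share of cells is given further on.

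**Figure D2:**
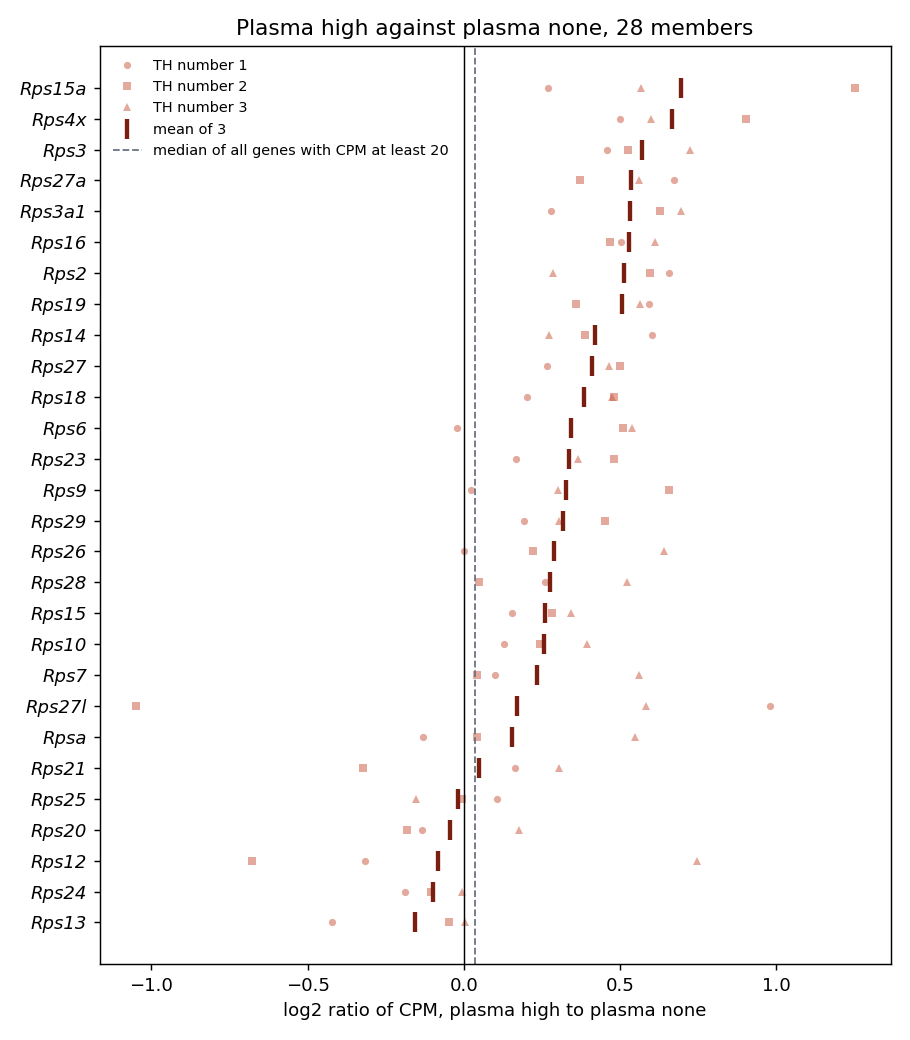
Log2 ratio of CPM between plasma high and plasma none for 28 members, ordered by the mean of 3 (vertical bar), with a circle, square and triangle for TH 1, 2 and 3. Most points lie right of 0 and of the dashed median of all genes (0.03), while Rps27l and Rps12 spread widely over the 3 TH numbers.

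Rps15a, a body protein that contacts 18S rRNA, had 64.8, 24.7 and 43.2 CPM in plasma none, 73.3, 42.4 and 77.3 CPM in plasma low and 78.3, 60.2 and 64.6 CPM in plasma high (TH 1, 2 and 3 in this order, here and in what follows). The groups overlapped, because the TH 1 value of plasma none was above 2 of the plasma high values, and the TH 2 value of plasma none was the lowest of the 9. The log2 ratio was 0.70 ± 0.50 (0.27, 1.25 and 0.57), or 0.42 without TH 2.

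Rps4x, encoded on the X chromosome and part of the body, had 195.6, 162.6 and 155.1 CPM in plasma none, 207.98, 178.2 and 197.5 CPM in plasma low and 276.8, 305.2 and 235.6 CPM in plasma high. Every plasma high value was above every value of the other two groups. The log2 ratio to plasma none was 0.67 ± 0.21, and that to plasma low was 0.48 ± 0.27. The paralog Rps4l was not analysed here.

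Rps3, which lines the mRNA entry in the head and is a target of ribosome quality control, had 371.7, 340.6 and 306.4 CPM in plasma none, 453, 341.3 and 386 CPM in plasma low and 511, 491 and 507 CPM in plasma high. The plasma high values were closely spaced and lay above all the others. Plasma none and plasma low overlapped. The log2 ratio was 0.57 ± 0.14. Few of the coding words of Rps3 have copies elsewhere.

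Rps27a, which is made as a fusion with ubiquitin and so supplies both a ribosomal protein and ubiquitin, had 142.1, 115.6 and 99.3 CPM in plasma none, 167.6, 122.7 and 150.5 CPM in plasma low and 227.3, 149.9 and 147.1 CPM in plasma high. The plasma high values were above all those of plasma none but overlapped with plasma low. Its log2 ratio was 0.54 ± 0.15.

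Rps2 lies at the mRNA entry beside Rps3, and had 98.4, 116.6 and 108.3 CPM in plasma none, 99.9, 113.4 and 127.4 CPM in plasma low and 155.8, 176.97 and 132.3 CPM in plasma high. Plasma none and plasma low overlapped, and plasma high was above both. Log2 ratios were 0.51 ± 0.20 against plasma none and 0.44 ± 0.34 against plasma low. Rps2 has the most copies of all members, with 71 pseudogenes that share coding words.

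Rps19, a head protein whose loss of function causes Diamond-Blackfan anaemia, had 88.7, 86.2 and 72.3 CPM in plasma none, 110.5, 79.7 and 80.9 CPM in plasma low and 134.3, 110.8 and 107.5 CPM in plasma high. Plasma high was above plasma none in every TH number and without overlap, with a log2 ratio of 0.51 ± 0.13, while the TH 1 value of plasma low lay within the plasma high range.

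Rps29, a small zinc-binding head protein, had 114.4, 89.7 and 99.5 CPM in plasma none, 137.8, 98.01 and 103.5 CPM in plasma low and 130.9, 122.9 and 123.3 CPM in plasma high. Plasma high exceeded every plasma none value, by a log2 ratio of 0.32 ± 0.13. Rps26, at the mRNA exit where it contacts bases upstream of the start codon, had 73.3, 59.6 and 47.4 CPM in plasma none, 84.4, 55.5 and 68.1 CPM in plasma low and 73.4, 69.7 and 74.5 CPM in plasma high. Its ratio of 0.29 ± 0.33 rested on TH 2 and 3, since the TH 1 values of plasma none and plasma high were nearly equal. Rps28, also at the exit, had 42.6, 41.3 and 28.3 CPM in plasma none, 46.4, 26.9 and 34.5 CPM in plasma low and 51.2, 42.7 and 41.1 CPM in plasma high. Its groups overlapped, and the log2 ratio was 0.28 ± 0.24; 1 cell held 21.2% of the Rps28 reads of plasma none.

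Rps6, the substrate of the S6 kinases, was not among the 23. Levels of Rps6 were 95.2, 67.9 and 49.04 CPM in plasma none, 82.8, 80.8 and 64.7 CPM in plasma low and 93.8, 97.1 and 71.6 CPM in plasma high. The TH 1 values of plasma none and plasma high were alike and the other two pairs differed, which gave a log2 ratio of 0.34 ± 0.32. Rpsa, a protein near the mRNA exit also known as the laminin receptor precursor, had 165.6, 98.5 and 102.04 CPM in plasma none, 142.9, 107.99 and 112.7 CPM in plasma low and 151.3, 101.5 and 149.5 CPM in plasma high. Its ratio of 0.15 ± 0.35 was smaller than its SD and came from TH 3; without TH 3 it was -0.04.

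At the lower end stood Rps13, Rps24, Rps12, Rps20 and Rps25, with ratios close to 0. Rps13, at the interface with the large subunit, had 95.3, 56.1 and 63.4 CPM in plasma none, 107.9, 45.8 and 70.97 CPM in plasma low and 70.9, 54.2 and 63.7 CPM in plasma high. Only its TH 1 pair differed much, and the log2 ratio was -0.16 ± 0.23. Rps24, another gene of Diamond-Blackfan anaemia, had 250.3, 204.2 and 185.4 CPM in plasma none, 265.5, 156.5 and 186.8 CPM in plasma low and 219.4, 189.98 and 184.5 CPM in plasma high. It was lower in plasma high in 3 of 3 TH numbers, with log2 ratios of -0.19, -0.10 and -0.01 and with the groups overlapping.

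Rps12, a protein of the beak, had 116.8, 89.1 and 43.3 CPM in plasma none, 102.8, 58.8 and 66.3 CPM in plasma low and 93.6, 55.3 and 73.5 CPM in plasma high. The TH numbers went opposite ways, with log2 ratios of -0.32, -0.68 and 0.75, and 1 cell held 20.0% of its plasma none reads. Rps20, a head protein, had 184.1, 96.01 and 112.3 CPM in plasma none, 205.6, 79.2 and 140.4 CPM in plasma low and 167.7, 84.6 and 127.1 CPM in plasma high. TH 1 was highest in each group and the ratio was -0.05 ± 0.19. Rps25, which is needed for initiation at several viral internal entry sites, had 346.2, 291.3 and 332.6 CPM in plasma none, 358.4, 277.3 and 327.7 CPM in plasma low and 372.4, 290.4 and 299.2 CPM in plasma high. Its levels were alike in the 3 groups, with a ratio of -0.02 ± 0.13. When each cell was given the same weight (the mean of per-cell CPM), the ratios of Rps13, Rps24, Rps12, Rps20 and Rps25 turned positive, between 0.02 and 0.12.

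Within the Rps27 family, Rps27 had 143.1, 102.5 and 101.6 CPM in plasma none, 147.8, 122.5 and 131.5 CPM in plasma low and 172.2, 145.3 and 140.5 CPM in plasma high. It was higher in plasma high in each TH number, with a log2 ratio of 0.41 ± 0.13, and the TH 1 value of plasma none overlapped with plasma high. Rps27rt had 2.26, 1.08 and 1.45 CPM in plasma none, 2.60, 1.16 and 2.45 CPM in plasma low and 3.96, 2.05 and 3.02 CPM in plasma high; the 3 plasma high values were each above the plasma none value of the same TH number. Rps27l had 24.9, 38.8 and 29.9 CPM in plasma none, 58.99, 22.6 and 37.4 CPM in plasma low and 50.04, 18.2 and 45.3 CPM in plasma high. Its ratios went opposite ways between TH numbers (0.98, -1.05 and 0.58), so the mean of 0.17 ± 1.08 had an SD far larger than itself.

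By place in the subunit, 11 of 14 head proteins and 12 of 17 body and platform proteins were higher in all 3 TH numbers, beside 17.2% of all genes. Their medians were alike, at 0.33 and 0.34, against 0.03 over all genes. In the head, Rps3 had the highest ratio and Rps12 the lowest, and Rps13 had the lowest of the body and platform. Fau, which is made as a fusion of a ubiquitin-like protein with the small subunit protein Rps30, had 68.4 ± 10.5 CPM in plasma none and 103.2 ± 11.4 CPM in plasma high, and its log2 ratio of 0.59 ± 0.22 was positive in 3 of 3 TH numbers. Rack1, the signalling scaffold on the head, had a ratio of 0.20 ± 0.95, within its SD.

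Plasma low against plasma none gave a smaller median. Of 32 members, 14 were higher in all 3 TH numbers and 0 were lower in all 3, beside 15.1% and 12.02% of 6937 genes. No p-value belongs to the count of 0, since the design allows no test. The median log2 ratio was 0.15 (0.14, 0.06 and 0.30), and in 20 of the 32 members the mean was smaller than its SD. TH 2 set the count: without it 25 members were higher in both remaining TH numbers, beside 18 without TH 1 and 14 without TH 3. Rps15a had the largest ratio at 0.58 ± 0.36. Rps23, which sits at the decoding centre, followed at 0.43 ± 0.27, with 124.3, 84.8 and 92.02 CPM in plasma none, 136.1, 121.01 and 144.3 CPM in plasma low and 139.7, 118.7 and 118.8 CPM in plasma high, and its highest value was in plasma low. The lowest ratios were those of Rps24 (-0.10 ± 0.25), Rps28 (-0.07 ± 0.47) and Rps12 (-0.06 ± 0.61), each within its SD.

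Plasma high against plasma low gave 14 members higher in all 3 TH numbers and 1 lower, beside 13.4% and 12.98% of 6928 genes. The median log2 ratio was 0.18 (0.12, 0.28 and 0.16). The 3 largest ratios were those of Rps4x and Rps2, given above, and Rps18, a head protein at the subunit interface, at 0.43 ± 0.08. Rps18 had 169.7, 110.3 and 102.6 CPM in plasma none, 138.9, 112.9 and 112.4 CPM in plasma low and 195.5, 154.4 and 142.8 CPM in plasma high. All its plasma high values lay above those of plasma low, while the TH 1 value of plasma none reached into the plasma high range. Rps21, a small protein of the body, was lower in all 3 TH numbers (-0.18 ± 0.13), with 60.8, 43.3 and 34.4 CPM in plasma none, 72.4, 37.8 and 53.9 CPM in plasma low and 68.2, 34.4 and 42.7 CPM in plasma high and overlapping groups. Rps13 and Rps20 followed at -0.17 ± 0.42 and -0.11 ± 0.19. These comparisons share groups and are not independent of each other. In group means, 20 of the 32 members were ordered plasma none, plasma low, plasma high from lowest to highest, beside 22.4% of all 6951 genes with a mean of at least 20 CPM.

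The share of reads per cell gave the family as a whole. In the median cell, members took 0.476%, 0.359% and 0.372% of the reads in genes for plasma none, 0.513%, 0.388% and 0.426% for plasma low and 0.565%, 0.451% and 0.502% for plasma high. The order none, low, high held within each TH number, but across them the groups overlapped, because TH 1 was the highest in every group. Averaged over TH numbers, plasma none had 0.402% ± 0.0641, plasma low 0.442% ± 0.0639 and plasma high 0.506% ± 0.0572. The difference to plasma none was 0.104 ± 0.0228 percentage points for plasma high and 0.0402 ± 0.0129 points for plasma low. The shift covered the spread of the cells: the lower quartile differed by 0.0885 ± 0.0157 points between plasma high and plasma none and the upper quartile by 0.142 ± 0.0401 points. No passing cell was without a member read.

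**Figure D3:**
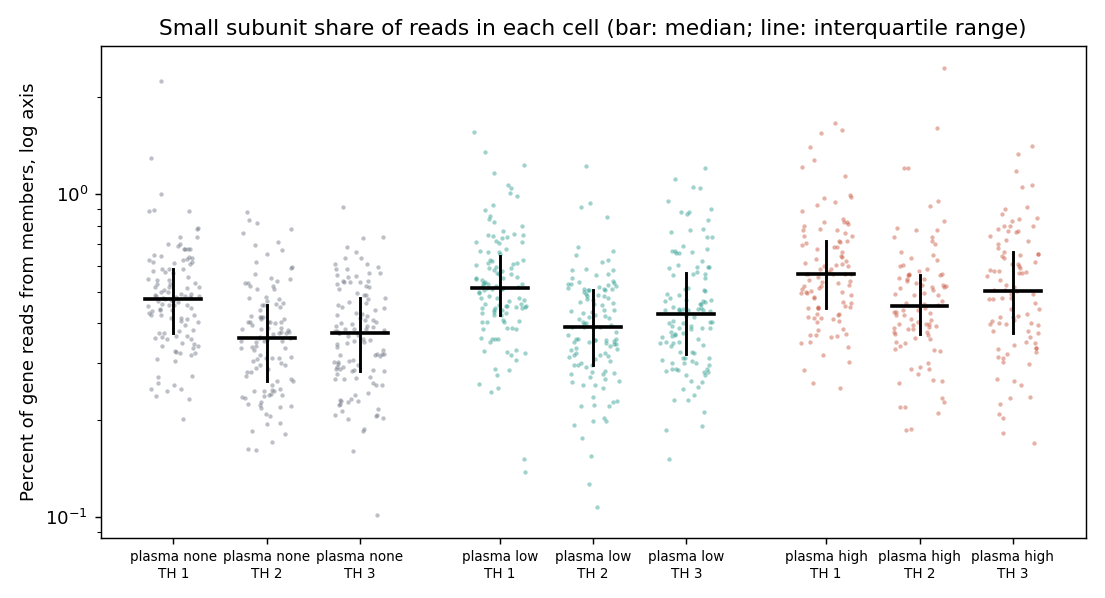
Percent of gene reads from the 33 members in each of 987 cells, on a log axis, by plasma group and TH number, with a bar at the median and a line over the interquartile range. The medians run from 0.359% (plasma none, TH 2) to 0.565% (plasma high, TH 1), and the cells of the groups overlap widely.

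TH 1 stood apart for the family whatever the group. A total of 31 of 32 members had a higher mean log2 CPM in TH 1 than in TH 2 and 3, with a median difference of 0.38, while 3461 of all 6951 genes did, with a median of 0.00. Rps20 (0.82) and Rps10 (0.73) differed the most, and Rps2 (-0.14) was the exception. Per the file headers, the alignments behind the tables of TH 2 and TH 3 had been cut down to top hits, which the header of TH 1 does not state; its part in this difference was not tested. Ratios between groups were taken within a TH number, which removes only a difference of equal size in the groups. Whether it was equal was not tested. The median log2 ratio of the members between plasma high and plasma none was 0.20, 0.37 and 0.50 in TH 1, 2 and 3.

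Plate position moved with the group. The column medians of the member share were 0.346% to 0.447% over the 8 columns of plasma none, 0.382% to 0.484% over the 8 of plasma low and 0.465% to 0.558% over the 7 of plasma high. All 7 plasma high columns were above all 8 plasma none columns, and columns within a group differed by about as much as the groups did. Within each group the last column was lower than the first. The medians were 0.442% in column 1 and 0.404% in column 8 of plasma none. They were 0.467% in column 9 and 0.420% in column 16 of plasma low, and 0.512% in column 17 and 0.465% in column 23 of plasma high. The part of plate position was not tested.

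**Figure D4:**
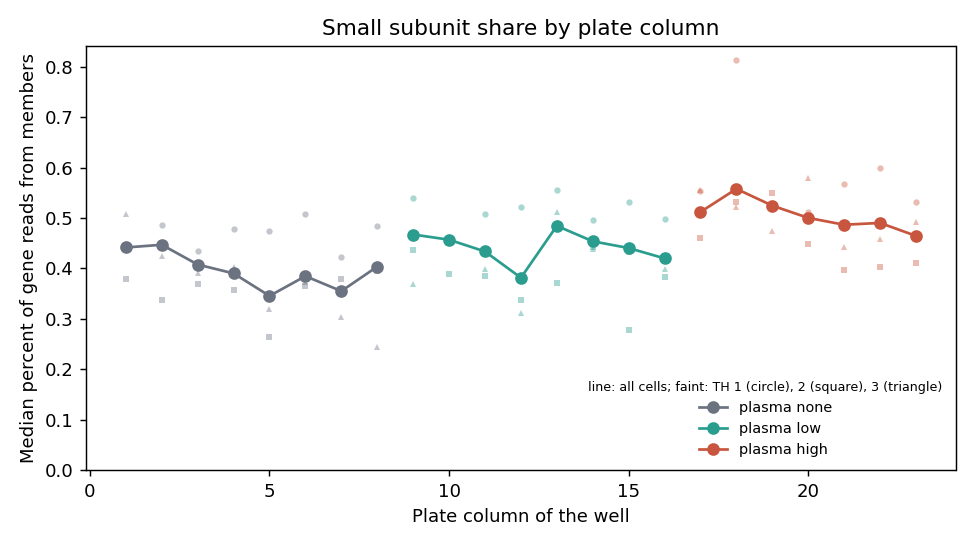
Median percent of gene reads from members by plate column, with filled points for all cells of the column joined within a group and faint circles, squares and triangles for TH 1, 2 and 3. Plasma high columns lie between 0.465% and 0.558%, and within each group the line ends lower than it starts.

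Other measures of the cells moved with the groups as well. The median percent of reads from the mitochondrial genome was lowest for plasma none (0.604% ± 0.0558), higher for plasma low (0.819% ± 0.0851) and highest for plasma high (0.975% ± 0.205). Taking the member share over reads outside that genome gave a difference of 0.107 ± 0.0232 points between plasma high and plasma none, as large as before. With each cell thinned to 50000 reads, the median number of genes with a read was 1535 ± 66.05 for plasma none, 1810 ± 193.05 for plasma low and 1745 ± 112.4 for plasma high; its part in the shares of cells was not tested.

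The share of cells with a read was taken after thinning each cell to 50000 reads, which made the total of gene reads equal but not the number of genes detected, given above. For 31 of the 32 members above 20 CPM plasma high had the higher share in all 3 TH numbers when set against plasma none, against 31.5% of 6940 genes. The median difference over all 33 members was 14.2 percentage points, from 4.76 (Rps29) to 20.2 (Rps19), and over all genes it was 1.86 points. Members with a read in nearly every cell had little room to differ. A cell of plasma none had reads of 19 ± 1.73 of the 33 members in the median, one of plasma low 22.2 ± 2.84, and one of plasma high 24 ± 2. Cells with reads of under 50% of the members were most frequent among plasma none (28.4% ± 10.5) and less so among plasma low (12.8% ± 12.1) and plasma high (9.07% ± 7.98).

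Plasma low differed from plasma none in the same way, with 25 of 32 members higher in all 3 TH numbers, against 34.8% of genes, and a median difference of 9.10 points. Between plasma high and plasma low 16 of 32 were higher, against 11.5% of genes.

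**Figure D5:**
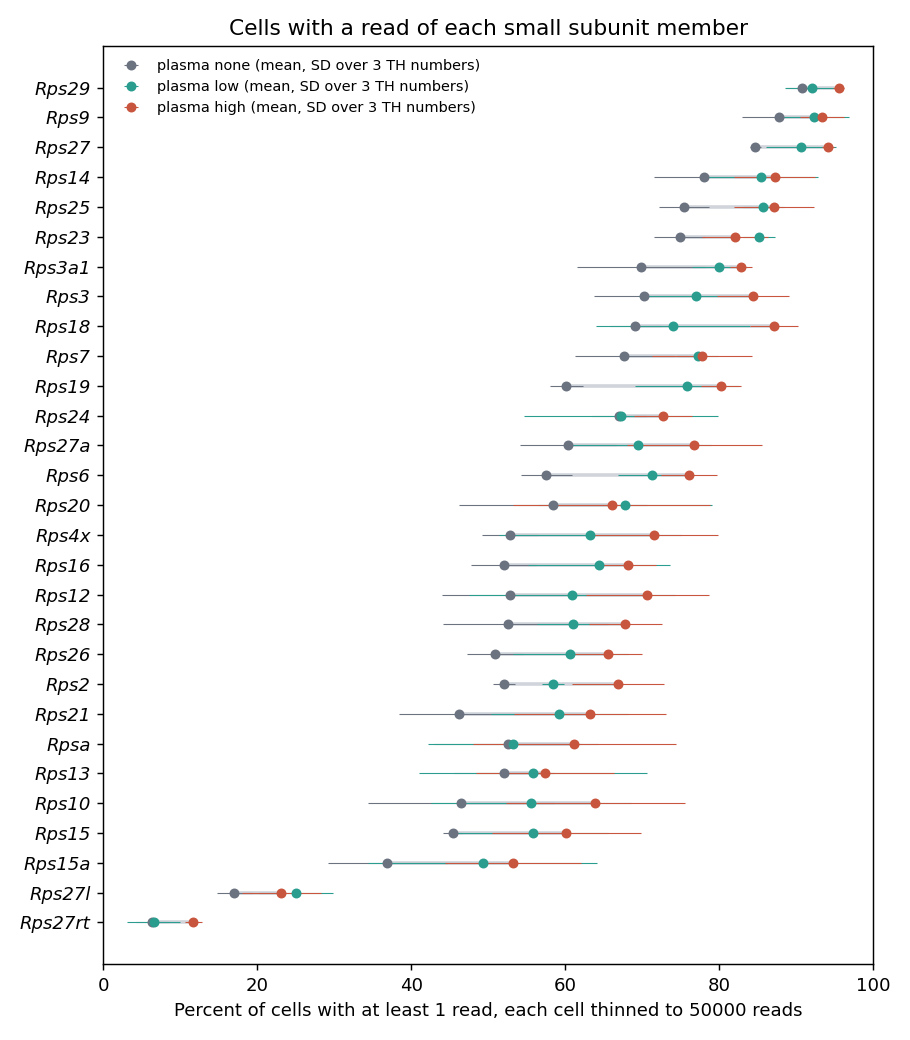
Percent of cells with at least 1 read of each of 29 members after thinning to 50000 reads, as mean and SD over 3 TH numbers for each plasma group. Plasma high lies right of plasma none for all of them, by 4.76 to 20.2 points, and Rps27l and Rps27rt have a read in the fewest cells.

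The members at the top were Rps29, with a read in 90.7% ± 2.05 of plasma none cells, 92% ± 3.52 of plasma low and 95.5% ± 0.765 of plasma high, and Rps9, an early-binding body protein, with 87.8% ± 4.84, 92.3% ± 4.53 and 93.4% ± 2.88. Rps29 is the shortest member by coding length, and cells with a read held a median of 5 reads of it, against 15 of Rps9. Over the 32 members the share of cells followed the level per kilobase (rank correlation 0.82) more than coding length (0.02), as a description over genes of the same cells.

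Rps19 differed the most. Its share of cells was 57.8%, 61.9% and 60.7% for plasma none, 81.4%, 68.4% and 77.6% for plasma low and 83.2%, 78.1% and 79.6% for plasma high. Plasma none was below both other groups without overlap. Rps6, whose level overlapped between groups, was found in 60.3%, 58.4% and 53.8% of plasma none cells and 80.2%, 75% and 73.1% of plasma high cells, which did not overlap.

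Rps18 went from 72.4%, 69.03% and 65.8% in plasma none to 90.1%, 87.5% and 83.9% in plasma high, with a difference of 18.1 ± 0.394 points that was nearly equal in the 3 TH numbers. Rps24, which was lower by level, had a read in 67.02% ± 3.5 of plasma none cells and 72.7% ± 3.76 of plasma high cells, so the 2 measures went opposite ways. Rps20 was the exception among the 33: its difference of 7.69 ± 9.59 points did not have the same sign in every TH number.

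The 2 rare members were Rps27l and Rps27rt. Rps27l had a read in 17.03% ± 2.28, 25.1% ± 4.82 and 23.1% ± 5.15 of cells in plasma none, low and high, and cells with a read held a median of 7 reads of it, more than the 6 of Rps27. Pooled over TH numbers the share of Rps27l was 17.1% in plasma none (exact Clopper-Pearson 95% interval 13.2% to 21.4%) and 23.1% in plasma high (18.4% to 28.4%), intervals that cover counting error only. Rps27rt had a read in 6.35% ± 2.12, 6.54% ± 3.40 and 11.7% ± 1.08 of cells, mostly a single read.

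The large subunit proteins, 49 of 52 above 20 CPM, are the partners of the members in the whole ribosome. Between plasma high and plasma none 29 of 49 were higher in all 3 TH numbers and 1 was lower (17.2% and 14.2% of all genes), with a median log2 ratio of 0.30, beside 23 of 32 and 0.34 for the small subunit. Rpl15 had the largest ratio (0.86 ± 0.10) and Rpl5, which binds 5S RNA, the lowest (-0.51 ± 0.30). The share of cells with a read was higher in all 3 TH numbers for 44 of 49 large subunit genes, beside 31.5% of all genes. In the median cell, the ratio of small to large subunit reads was 0.736 ± 0.0487 for plasma none. It was 0.729 ± 0.0336 for plasma low and 0.756 ± 0.0277 for plasma high. Taken within a TH number, the mean difference to plasma none was 0.0205 ± 0.0568 for plasma high and -0.00714 ± 0.0425 for plasma low. Both differences were smaller in size than their SD. The ratio of plasma high exceeded that of plasma low by 0.0276 ± 0.0182 (0.00804, 0.0442 and 0.0306 in TH 1, 2 and 3). Within a cell the 2 shares went together, with rank correlations from 0.403 to 0.725 in the 9 sets of cells; both shares have the same total as denominator.

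The other genes of the pathway are given by list, and their counts are to be read against the 17.2% of all genes that were higher and the 14.2% that were lower in 3 of 3 TH numbers. Of the factors that assemble and mature the 40S subunit, 11 of 14 were above 20 CPM; 1 was higher in plasma high in 3 of 3 TH numbers and 3 were lower, with a median log2 ratio of -0.21. The 1 higher gene was Bysl, which acts in 18S rRNA processing (7.96 ± 4.004 CPM in plasma none and 32.4 ± 19.9 CPM in plasma high); it passed the filter only through plasma high, so its rise follows from the filter and supports nothing. Ltv1, which helps Rps3 and Rps20 into the head, had the lowest ratio (-1.11 ± 0.66), with 40.3 ± 12.2 CPM in plasma none and 20.99 ± 13.5 CPM in plasma high. Nop14, also counted as lower, had 32.1 ± 5.06 CPM in plasma none and 17.6 ± 6.60 CPM in plasma high. Of these 2 groups it was above 20 CPM only in plasma none, through which it passed the filter. Of 7 nucleolar and RNA polymerase I genes above 20 CPM 1 was higher and 1 lower, with Ubtf, the polymerase I transcription factor, at 0.46 ± 0.36 and Dkc1, the pseudouridine synthase, at -0.77 ± 0.48; of these 2 groups Dkc1 was above 20 CPM only in plasma none, through which it passed the filter.

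Among 25 initiation factors and poly(A)-binding protein, 2 were higher and 2 lower in all 3 TH numbers, with a median of 0.15. Eif4b, a helicase cofactor and an S6 kinase substrate, had the largest ratio (0.91 ± 1.08) and Eif5 the lowest (-0.55 ± 0.52), each with a wide SD. Of the 9 measured S6 kinase, mTORC1 and TOP regulator genes 1 was higher and 0 lower, with a median of 0.07. Eif4ebp1, an inhibitor of the cap-binding protein Eif4e, was highest (0.39 ± 0.55) and Rps6kb2, the second S6 kinase, lowest (-0.85 ± 1.32). Of the 6 measured genes of stalled-ribosome quality control 1 was higher and 0 lower, with Rnf10, which ubiquitinates Rps2 and Rps3, at 0.43 ± 0.26 and Usp10, which removes that ubiquitin, at -0.30 ± 0.64.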

How the data were processed

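Single microglia of 3 plasma groups were measured by Smart-seq2. The deposited tables hold 1 whole-number count per gene and cell, 1 table per TH number with 35583 genes each; 1 column of TH 3 was treated as an expected count because 2 of its values were not whole, per the file headers and values, and was rounded. Per the submitters' processing notes, bcl2fastq, Trim Galore, STAR 2.5.3a and Seurat were used with mm10; the counting tool, its strand setting and its handling of reads with several matches are not given in the sources used here. The well and TH number of a label identified the column of 1045 of the 1111 cells; no column lacked a cell (0 left), and 66 cells were not analysed here.

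Cells below 50000 gene reads or 500 detected genes were dropped. Each cell was sorted into a well of its own, so no doublet caller was run. Reads were summed by group and TH number into 9 sums of 21309816 to 49323522 reads and scaled to CPM with TMM factors (edgeR 4.0.16, R 4.3.3; Python 3.11.15, scipy 1.17.1). Log2 ratios used a pseudocount of 1 CPM, which understates the change of low genes, and were taken within a TH number and averaged. A gene counted as tested with a mean of at least 20 CPM in the 6 sums compared; higher or lower means the same sign in 3 of 3 TH numbers, and 1.5-fold the size used beside it. No p-values were computed. Ratios were checked on simulated sums with known changes. For shares of cells each cell was thinned to 50000 reads.

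All 33 members were found in GENCODE M21 (GRCm38) with identical coordinates. Coding lengths are those of 1 principal transcript per gene. The members and all lists were chosen with earlier results of these data known. Named members were the 5 largest rises and 5 largest falls between plasma high and plasma none, the 3 of each in the other comparisons, and members fixed by role. Other genes were the largest rise and fall of each list, and Nop14 was named for how it passed the filter. Members named for level or share of cells were chosen after seeing values. Alternatives were other scalings (DESeq2 1.42.0 size factors among them), pseudocounts, cell filters and weights, and leaving out each TH number. A few members that this rule or the figures would show are counted in all totals but not reported by name here.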

Additional observations from a re-analysis of the deposited data

How the results depend on the processing

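The median log2 ratio of the members stayed above 0 in each comparison under every setting tried: 0.30 to 0.43 for plasma high against plasma none, 0.10 to 0.21 for plasma low against plasma none and 0.14 to 0.23 for plasma high against plasma low. Leaving out 1 TH number at a time gave 23 to 25 members higher in every remaining TH number for plasma high against plasma none, 14 to 25 for plasma low against plasma none and 16 to 18 for plasma high against plasma low. Without TH 2 the count for plasma low against plasma none was 25. With fewer TH numbers to meet, such counts can only stay or grow. With all 3 TH numbers asked for, the other settings gave 20 to 24, 12 to 17 and 13 to 20 members in the 3 comparisons in this order. The main setting gave 23, 14 and 14.

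The TH numbers are not known to pair the cells. Same-numbered sums deviated together from their group means with correlations of 0.03 to 0.09 across genes, and sums of different numbers with -0.06 to -0.004. Each sum thus correlated best with its own number, but weakly. The deviations of a group cancel over its TH numbers, so positive values for the same number bring negative ones for the others by arithmetic. With no replicate block, that is without pairing by TH number, 26 members had a higher group mean in plasma low than in plasma none and 23 in plasma high than in plasma low, beside 52.1% and 51.7% of all genes; that rule asks only for 1 mean to be higher.

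The mean over cells in place of the median gave a difference in member share of 0.135 points for plasma high against plasma none and 0.0816 points for plasma high against plasma low. Asking for at least 5 reads in place of 1 gave a median difference in the share of cells of 6.66 points. Direction turned only in named members with ratios near 0 or a wide SD. Under the mean of per-cell CPM, Rps13 came to 0.064, Rps24 to 0.023, Rps12 to 0.034, Rps20 to 0.12 and Rps25 to 0.10. Without the top cell of each gene Rps12 came to 0.16, and without the outermost wells Rps27l came to -0.027. Leaving out 1 TH number at a time gave -0.50 to 0.22 for Rps12 (0.034 without TH 1), -0.16 to 0.022 for Rps20, -0.078 to 0.050 for Rps25, -0.044 to 0.29 for Rpsa, and -0.23 to 0.78 for Rps27l (-0.035 without TH 3). The cause of these changes was not tested. The ratio of Rps27rt, at under 4 CPM in every sum, was 0.62 and moved to 0.88 with a pseudocount of 0.1 CPM and to 0.16 with 10 CPM.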

Other observations

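The member share of a cell was not higher in cells with more reads. Within the 9 sets of cells its rank correlation with the reads in genes ran from -0.36 to 0.04, and that with the number of genes with a read from -0.44 to -0.04, given as descriptions over at least 93 cells that share a library preparation. With the percent of mitochondrial reads the correlation was between 0.08 and 0.46, positive in all 9 sets. Between cells of a set the member share had a coefficient of variation of 49.3% ± 7.77 for plasma high, 42.2% ± 2.06 for plasma low and 41.2% ± 4.66 for plasma none (SD over 3 TH numbers).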
